A study of Mus musculus with 3 samples.

Results

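Primary microcephaly is a congenital small brain, and 10 mouse genes whose human counterparts are mutated in it were examined here for NF-Y binding and for the promoter mark H3K4me3 in embryonic cortex. They are Aspm, Wdr62, Mcph1, Cdk5rap2, Cenpj, Stil, Cep135, Cep152, Cit and Cep63. They were taken by name from GENCODE M21 (55450 genes, of which 21938 are protein-coding and outside the mitochondrial genome), and all 10 were found there. A gene was counted as a target when a peak overlapped the gene body, or the 5 kb before its 5′ end, by at least 1 bp. Aspm and Wdr62 were set against the other 8.

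Chromatin came from the cortex of E13.5 mouse embryos. The labels give no genotype, strain, treatment, sex or number of pooled embryos. There were 3 libraries, namely ChIP with an antibody to NF-YC, ChIP with an antibody to H3K4me3 and an input without antibody, and peak lists of the 2 ChIP libraries were analysed. With 1 library per antibody no difference below has a replicate check, no test between antibodies or genes was made, and the read depth of the libraries is not known from the lists. A peak that is not listed was not detectable at this depth and threshold, which does not show that the protein was absent.

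NF-Y is a trimer of NF-YA, NF-YB and NF-YC that binds the CCAAT box, a short promoter element that is common in genes of the cell cycle. H3K4me3 marks the nucleosomes just downstream of active or poised transcription start sites (TSSs). In the developing cortex, neural progenitors divide at the ventricular surface, and the products of most microcephaly genes act at the centriole, the centrosome or the spindle pole during that division. Aspm and Wdr62 are spindle pole proteins. Stil, Cep135 and Cenpj build the centriole, Cep63 and Cep152 recruit the duplication machinery to it, and Cdk5rap2 anchors γ-tubulin complexes in the pericentriolar material. The products of the other 2 genes act mainly elsewhere: Mcph1 in the nucleus, in chromosome condensation and DNA repair, and Cit (citron kinase) at the midbody, in cytokinesis.

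NF-Y-ChIP peaks were present at Cit, Aspm and Wdr62, each at the promoter, and at none of the other 7 genes. H3K4me3 covered a TSS of all 10. The genes with an NF-Y-ChIP peak were also those with at least 3 CCAAT boxes just upstream, except that Cep152 had 3 boxes and no listed peak. This split depends on the motif and window: with the longer motif defined below Cit had 2 boxes, as did the unbound Stil, and from 500 bp upstream to 100 bp downstream Stil had 3. To let these elements be seen in place, the 250 bases upstream of the 5′ end are given below for the 2 bound genes whose upstream sequence overlaps no exon of a neighbour, Cit and Aspm. The reference is GRCm38, each sequence reads 5′ to 3′ on the gene's strand up to the base before the gene, and capitals mark CCAAT or its complement ATTGG.
Cit (chr5:115845028-115845277, plus strand): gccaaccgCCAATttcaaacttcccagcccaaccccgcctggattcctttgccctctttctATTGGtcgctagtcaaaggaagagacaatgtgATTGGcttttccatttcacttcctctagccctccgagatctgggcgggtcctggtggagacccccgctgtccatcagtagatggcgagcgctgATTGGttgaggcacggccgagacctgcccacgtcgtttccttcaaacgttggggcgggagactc
Aspm (chr1:139454522-139454771, plus strand): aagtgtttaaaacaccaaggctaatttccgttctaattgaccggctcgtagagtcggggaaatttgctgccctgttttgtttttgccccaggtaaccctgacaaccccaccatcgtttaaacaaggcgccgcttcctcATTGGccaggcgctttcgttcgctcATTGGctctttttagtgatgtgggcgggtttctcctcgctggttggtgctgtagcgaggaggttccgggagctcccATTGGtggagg

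Upstream of Wdr62 lie exons of the neighbouring gene Thap8, so only its 3 boxes are given, each with 10 bases on either side and the same use of capitals.
Wdr62 box starting at −79 bp (chr7:30280484-30280508, minus strand): cttatctcccATTGGgcaatgagcc
Wdr62 box starting at −47 bp (chr7:30280452-30280476, minus strand): aagctttgtgATTGGccagccgggg
Wdr62 box starting at −20 bp (chr7:30280425-30280449, minus strand): ccggctgcgtCCAATgggcggtggc

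The unbound genes with boxes upstream are shown for comparison. Cep152 carries as many boxes as Aspm and Wdr62, Stil carries a pair and Cep135 a single box.
Cep152 (chr2:125625114-125625363, minus strand): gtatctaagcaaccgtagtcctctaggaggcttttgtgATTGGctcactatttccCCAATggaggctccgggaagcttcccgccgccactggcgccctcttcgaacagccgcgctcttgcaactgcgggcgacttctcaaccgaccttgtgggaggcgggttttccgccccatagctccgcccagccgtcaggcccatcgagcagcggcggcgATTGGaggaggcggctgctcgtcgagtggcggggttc
Stil (chr4:114999909-115000158, plus strand): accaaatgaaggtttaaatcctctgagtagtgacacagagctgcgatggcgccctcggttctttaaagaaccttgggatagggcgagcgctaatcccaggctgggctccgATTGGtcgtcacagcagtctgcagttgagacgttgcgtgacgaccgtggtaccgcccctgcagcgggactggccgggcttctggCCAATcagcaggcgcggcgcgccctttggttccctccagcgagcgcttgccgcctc
Cep135 (chr5:76588448-76588697, plus strand): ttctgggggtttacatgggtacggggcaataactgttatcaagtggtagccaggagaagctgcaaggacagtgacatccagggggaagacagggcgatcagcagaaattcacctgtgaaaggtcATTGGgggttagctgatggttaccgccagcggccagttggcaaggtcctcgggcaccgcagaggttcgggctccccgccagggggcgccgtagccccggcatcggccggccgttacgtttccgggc

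**Figure D1:**
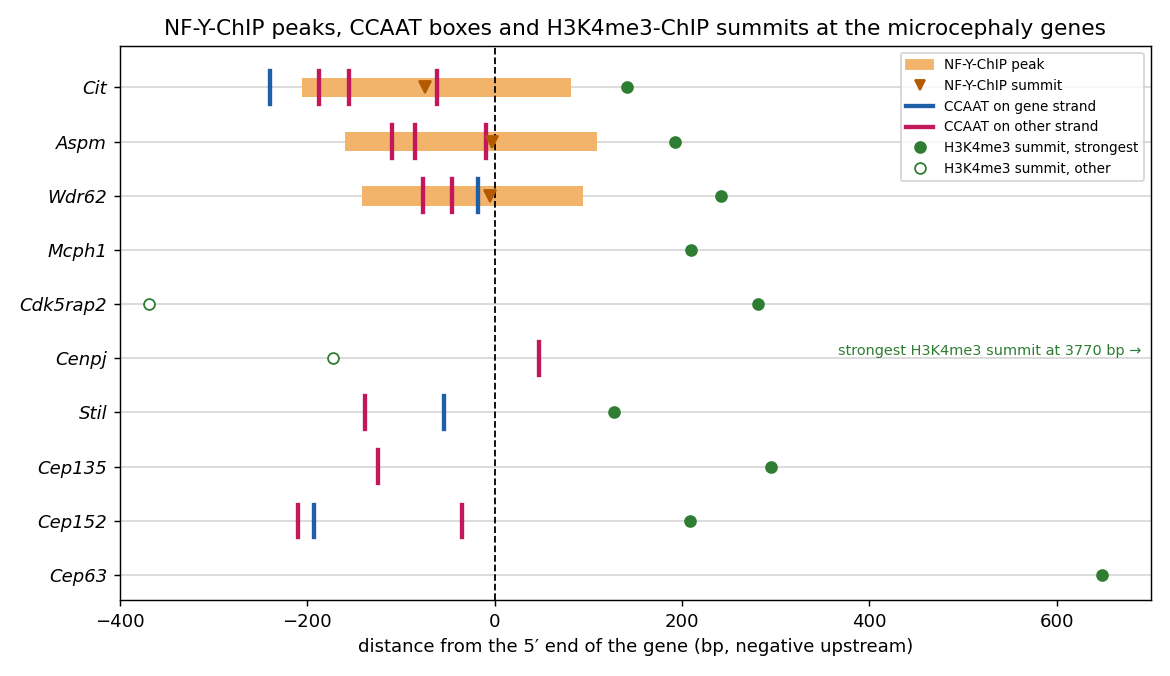
Each row is 1 gene, and the horizontal axis is the distance in bp from its annotated 5′ end, negative upstream. Orange bars are NF-Y-ChIP peaks with triangles at the summits, blue and red ticks are CCAAT boxes on the gene's strand and on the other strand from 250 bp upstream to 50 bp downstream of the 5′ end, and green circles are H3K4me3-ChIP summits (filled for the strongest promoter peak of a gene). The NF-Y-ChIP summits of Cit, Aspm and Wdr62 lie from −74 to −3 bp, every filled circle lies downstream of the 5′ end, and the strongest summit of Cenpj, at +3770 bp, is beyond the right edge.

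By the target rule, 3 of the 10 genes had an NF-Y-ChIP peak, or 30.0% with an exact binomial 95% interval of 6.67 to 65.2%, against 3.69% of all protein-coding genes (809 of 21938). H3K4me3-ChIP peaks, of which the list holds 18816, were found at 10 of the 10, against 65.4% of protein-coding genes. Of the protein-coding genes that carried H3K4me3 by that rule, 5.6% also had an NF-Y-ChIP peak. The intervals on shares cover counting error only, and these 10 genes were named with earlier results for Aspm and Wdr62 known, so their share is a description. Aspm and Wdr62 gave 2 of 2, and the other genes gave 1 of 8.

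Cit had the strongest NF-Y-ChIP peak among the 3. The gene (ENSMUSG00000029516) spans chr5:115845278-116008947 on the plus strand, and the peak, chr5:115845072-115845359, was 288 bp wide. Its fold enrichment, which MACS2 computes as summit pileup over the local background, was 16.7, which ranked 36 among 733 NF-Y-ChIP peaks (the top 4.91%). The −log10 p of the peak was 43.9 and the −log10 q was 37.9. The summit lay at −74 bp, and of the peak's bases 206 were upstream of the gene and 82 inside it, 46 of them exonic. The peak thus straddled the annotated 5′ end of Cit, with most of it outside the gene.

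Aspm (ENSMUSG00000033952, chr1:139454772-139494091, plus strand) had an NF-Y-ChIP peak at chr1:139454612-139454880. The peak was 269 bp wide, its fold enrichment was 8.64 (rank 183), and its −log10 p and −log10 q were 18.5 and 13.3. The summit lay at −3 bp, with 160 bases of the peak upstream and 109 in exonic sequence of the gene. The median NF-Y-ChIP peak had a fold enrichment of 6.75 and the upper quartile began at 8.64, so the Aspm peak sat at the border of the upper quartile.

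Wdr62 (ENSMUSG00000037020, chr7:30240138-30280419, minus strand) had the weakest peak of the 3, at chr7:30280326-30280561. It was 236 bp wide, with a fold enrichment of 6.49 (rank 392, just below the middle of the list) and a −log10 p and −log10 q of 14.1 and 9.13. The summit was at −5 bp, with 142 bases upstream and 94 in exonic sequence. Ordered by −log10 p instead, the peaks of Cit, Aspm and Wdr62 ranked 31, 155 and 259, the same order as by fold enrichment. Without replicates it is not known which of these distances in rank exceed experimental error.

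**Figure D2:**
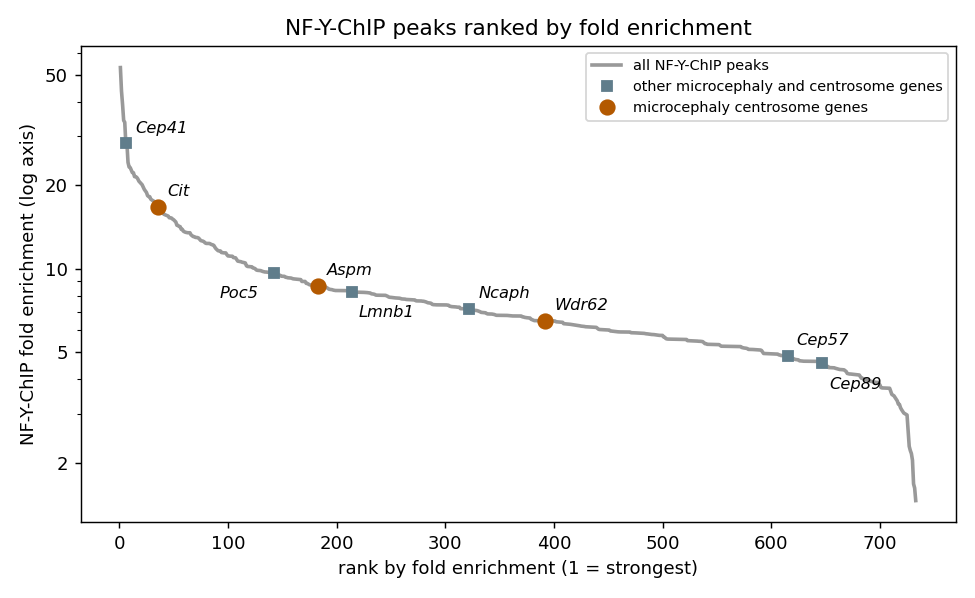
The vertical axis is the fold enrichment of NF-Y-ChIP peaks on a log scale, and the horizontal axis is their rank among the 733 peaks, with 1 library and no error bars. Labelled points mark the microcephaly genes and the genes of the context lists. Cit (16.7) lies on the steep part of the curve, Aspm (8.64) at the edge of the upper quartile and Wdr62 (6.49) near the median of 6.75.

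The Wdr62 peak is shared with another gene. Thap8, a zinc finger gene of the THAP family, runs in the opposite direction, with annotated 5′ ends 325 bp inside Wdr62 and at −137 bp from its 5′ end, so that the NF-Y-ChIP summit lies inside Thap8, 330 bp from the start of that gene. Thap8 was the only other gene that the target rule assigned to any of the 3 peaks. Whether the binding belongs to Wdr62, to Thap8 or to both cannot be told apart from these lists. The promoters of Cenpj, shared with Parp4 (5′ end at −194 bp), and of Cep63, shared with Anapc13 (5′ ends from −145 to +238 bp), were divergent in the same way and had no NF-Y-ChIP peak. Anapc13 encodes a subunit of the anaphase-promoting complex.

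All 3 NF-Y-ChIP peaks lay entirely within an H3K4me3-ChIP peak. The study places most of its NF-Y-ChIP regions within H3K4me3 regions, so this is not particular to these 3. At Aspm the H3K4me3-ChIP peak was 1561 bp wide with a fold enrichment of 66.3, at Cit 1649 bp with 48.1, and at Wdr62 1695 bp with 24.0. The H3K4me3-ChIP summit was 196 bp downstream of the NF-Y-ChIP summit at Aspm, 215 bp at Cit and 247 bp at Wdr62. NF-Y-ChIP signal therefore peaked upstream of or next to the TSS, and H3K4me3 in the beginning of the transcribed region, at each of the 3. At Wdr62 the H3K4me3-ChIP peak is shared with Thap8, so its fold enrichment is not of Wdr62 alone, and this order holds only as seen from Wdr62.

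The sequence under each summit held the NF-Y motif. Within 50 bp of the summit there was 1 CCAAT box at Aspm, 2 at Wdr62 and 1 at Cit, on either strand. Windows of the same size 500 bp to each side held 0 boxes in all 6 cases. Over the NF-Y-ChIP list outside the mitochondrial genome (732 peaks), 88.3% had at least 1 box within 50 bp, and 46.9% had 2 or more. In this respect the 3 peaks resembled the bulk of the list.

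The box nearest to a summit had its centre 6 bp upstream of it at Aspm, 13 bp upstream at Wdr62 and 12 bp downstream at Cit. The peaks held 3 boxes each over their whole width. At Aspm the boxes start at −112, −87 and −11 bp, all as ATTGG on the gene's strand. At Wdr62 they start at −79 and −47 bp as ATTGG and at −20 bp as CCAAT. At Cit they start at −189, −157 and −64 bp as ATTGG, and a further CCAAT at −242 bp lies outside the peak.

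Within the window from 250 bp upstream to 50 bp downstream of the 5′ end, the bound genes held 10 boxes (3 at Aspm, 3 at Wdr62, 4 at Cit), and the unbound genes 7. Cep152 had 3 boxes, starting at −212, −195 and −37 bp. Stil had 2, at −140 and −56 bp. Cep135 had 1 at −126 bp, Cenpj 1 at +45 bp, and Mcph1, Cdk5rap2 and Cep63 had 0. The members thus range from no box to 4, and of the 17 boxes 13 read ATTGG on the gene's strand. A longer form of the motif, CCAAT followed by C or G and then by A or G, was met by 8 of the 10 boxes at bound genes and by 6 of the 7 at unbound genes.

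Of protein-coding genes, 13767 had H3K4me3 within 1 kb of any annotated TSS and are called marked here. The windows at their 5′ ends are called marked promoters, although the H3K4me3 of a gene can lie at another TSS, as at Cenpj. Among these, 38.1% had at least 1 CCAAT box in that window, 13.8% at least 2 and 4.61% at least 3. In these marked promoters 3.78% (520) had an NF-Y-ChIP peak in the window, and peaks outside it, at other TSSs, were not counted. The share rose with the number of boxes. It was 0.258% (22 of 8520, exact 95% interval 0.162 to 0.391%) with no box, 3.22% (108 of 3353, 2.65 to 3.88%) with 1 and 14.4% (181 of 1260, 12.5 to 16.4%) with 2. With 3 boxes it was 24.3% (100 of 412, 20.2 to 28.7%) and with 4 or more it was 49.1% (109 of 222, 42.3 to 55.9%). Neighbouring intervals did not overlap, although genes that share a promoter are counted separately.

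Set on that scale, the 4 microcephaly genes with at least 3 boxes gave 3 bound promoters, beside 209 of 634 (exact 95% interval 29.3 to 36.8%) of marked promoters with as many boxes. The 6 with fewer boxes gave 0, which is near the shares of 0.258% with no box, 3.22% with 1 and 14.4% with 2. The peaks of Aspm and Wdr62 were known when the genes were named, so these counts are a description. With the longer motif the counts were 2 bound of 3 genes with at least 3 boxes (Aspm and Wdr62, not Cep152) and 1 bound, Cit, of the 7 with fewer. The share of bound marked promoters by number of longer motifs was not computed, so these counts have no scale beside them. Most marked promoters with 3 boxes had no listed peak, and Cep152 is among those. Among promoters with 3 boxes the median H3K4me3-ChIP fold enrichment was 43.6 with an NF-Y-ChIP peak and 41.0 without, and Cep152 had 34.8.

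**Figure D3:**
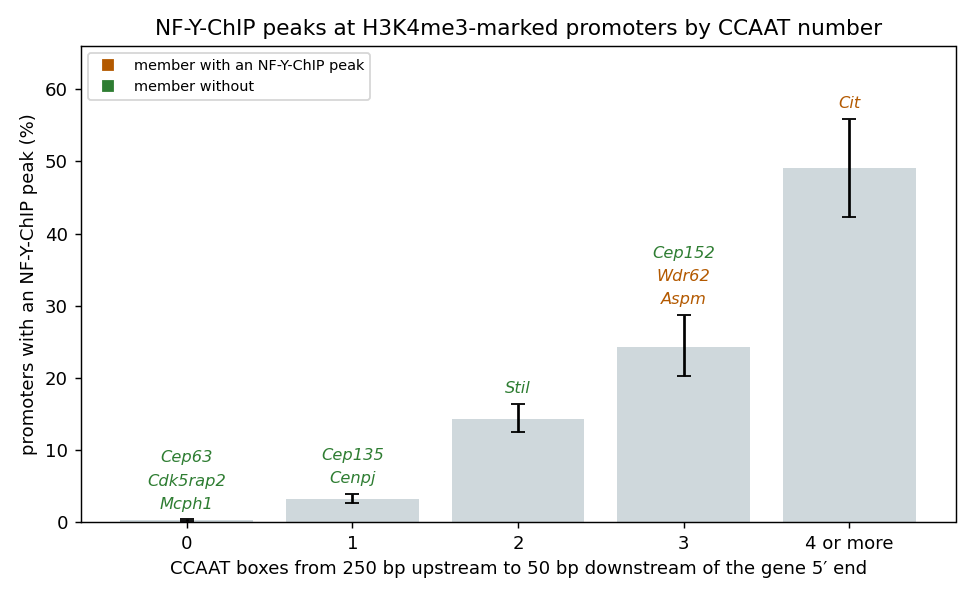
The vertical axis is the percentage of marked protein-coding genes with an NF-Y-ChIP peak in the window from 250 bp upstream to 50 bp downstream of the 5′ end, and the horizontal axis is the number of CCAAT boxes in the window. Marked genes have H3K4me3 within 1 kb of any annotated TSS, which need not be the 5′ end. Bars start at 0, error bars are exact binomial 95% intervals (counting error only), and the microcephaly genes are named above their class. The share goes from 0.258% without a box to 49.1% with 4 or more, where Cit falls, while Aspm and Wdr62 fall in the class at 24.3% together with Cep152.

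H3K4me3 did not separate the bound from the unbound genes. In order of the fold enrichment of the strongest promoter peak, the values were 73.1 at Mcph1, 66.3 at Aspm, 58.8 at Cenpj, 48.7 at Cep135, 48.1 at Cit, 46.0 at Stil, 45.5 at Cep63, 34.8 at Cep152, 33.3 at Cdk5rap2 and 24.0 at Wdr62. The 3 bound genes ranged from 24.0 to 66.3 and the 7 unbound genes from 33.3 to 73.1, so the groups overlap. Aspm and Wdr62 stood near opposite ends of the order, with Aspm above 91.4% of marked genes and Wdr62 above 22.6%. The median over marked genes was 39.9, with quartiles of 25.7 and 52.7, and Wdr62 was the only member below the lower quartile. No spread between libraries is available to say which neighbours in this order differ.

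**Figure D4:**
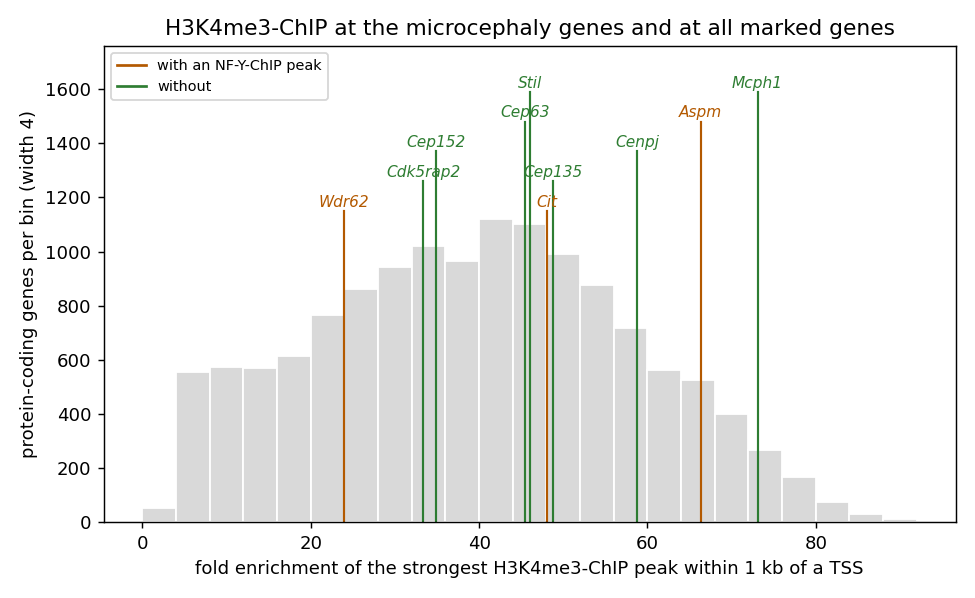
The grey histogram counts marked protein-coding genes (vertical axis) by the fold enrichment of their strongest promoter H3K4me3-ChIP peak (horizontal axis, bins of width 4). Vertical lines mark the microcephaly genes, orange with and green without an NF-Y-ChIP peak; line heights are set only to separate the names. The orange lines, at 24.0, 48.1 and 66.3, are spread among the green lines.

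Base composition overlapped as well. Over the same window the GC content ran from 53.0 to 59.0% at the bound genes and from 54.7 to 64.7% at the unbound genes, beside a median of 60.0% over marked promoters. The ratio of observed to expected CpG ran from 0.596 to 0.905 and from 0.731 to 1.02. Wdr62 had the lowest ratio of the 10.

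The strongest H3K4me3-ChIP summits lay 95 to 292 bp downstream of the nearest TSS of their gene. At Cenpj and Cep63 that TSS was an internal site, and at the other 8 genes it lay at most 47 bp from the 5′ end. At the annotated 5′ end of Cenpj, shared with Parp4, the fold enrichment was 14.2, whereas the peak of 58.8 covered an internal TSS at +3579 bp. At that TSS the window of the same size held 0 CCAAT boxes, beside 1 at the 5′ end. At Cep63 the nearest TSS was at +553 bp, where the window held 1 box, beside 0 at the 5′ end. Cit also had an internal H3K4me3-ChIP peak, with a fold enrichment of 9.06 and a summit at +61975 bp, −217 bp from the nearest TSS, which the peak covered, and a weaker peak of 4.76 at +63049 bp. The NF-Y-ChIP list held no peak at any of these internal TSSs. Small additional H3K4me3-ChIP peaks were listed at Aspm (4.75, summit at +1441 bp), Stil (4.75, at +1613 bp) and Cdk5rap2 (5.30, at −369 bp).

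Other elements often described in cell cycle promoters were searched on both strands of the same window. The cell cycle genes homology region (CHR, searched as TTTGAA or TTCGAA) was found in 6 of the 10, in Aspm, Mcph1, Cdk5rap2, Cenpj, Cep152 and Cit, beside 13.8% of marked promoters and 18.0% of all. Aspm had it at +7 bp and Cit at −237 and −24 bp, and Wdr62 had none. An E2F core (TTCGCGC or TTGGCGC) was found in 0 of the 10, beside 6.82% of marked promoters. Other forms, such as the TTCCCGC in the Cep152 sequence above, were not searched, so this does not show that E2F sites are absent. The GC box (GGGCGG) was found in 9, in every member but Cep63, beside 61.4% of marked promoters. Neither CHR nor GC box was shared by the bound genes alone, and a match of letters does not show that a factor binds there.

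The 7 genes without a peak were also far from the nearest listed one. The shortest distance was at Cdk5rap2, whose nearest NF-Y-ChIP summit lay 124.567 kb upstream, at the promoter of Megf9. At Cep63 it was 271.758 kb away, near the TSS of Ephb1. At Stil it was 737.541 kb away, near that of Efcab14. For Cep135, Cenpj, Cep152 and Mcph1 the distances ran from 1508.58 to 4210.59 kb. The peak nearest to Cep152 was that of Ncaph, itself a microcephaly gene. Widening the upstream limit from 5 to 50 kb therefore added no gene.

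The same rule was applied to 2 context lists. Of 20 further genes mutated in human microcephaly, 2 had an NF-Y-ChIP peak (10.0%, exact 95% interval 1.23 to 31.7%). They were Lmnb1, which encodes lamin B1 of the nuclear envelope (fold enrichment 8.27, rank 214, summit at −53 bp), and Ncaph, a condensin I subunit (7.14, rank 322, summit 207 bp downstream of the nearest TSS). Of 45 further centrosome and centriole genes 4 had a peak (8.89%, 2.48 to 21.2%). Cep41, a centrosomal and ciliary protein, had the strongest of them at 28.3 (rank 6, summit at −43 bp), above Cit. Poc5, a centriolar protein, followed at 9.67 (rank 142, −70 bp), and Cep57 (4.83, rank 615, −36 bp) and Cep89 (4.55, rank 647, −38 bp) had weaker peaks than Wdr62. The promoters of Cep57 and Cep89 are divergent, shared with Fam76b (5′ ends at −609 and −628 bp) and Faap24 (5′ ends from −327 to −199 bp). Whether these peaks belong to the centrosome gene, to the neighbour or to both cannot be told apart. The intervals of both lists contain the 5.6% found over all protein-coding genes with H3K4me3. The lists were chosen with earlier results of these data known, so both counts are descriptions and no test against that share was made.

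Since the 10 genes were named with the peaks of Aspm and Wdr62 known, their share is not compared with those of the context lists. All 20 and all 45 genes were marked by H3K4me3, as were the 10. At least 3 CCAAT boxes were found in 0 of the 20 and in 4 of the 45, beside 4.61% of marked promoters. Plk4 and Sass6, which start centriole duplication together with Stil, were in these lists and had no NF-Y-ChIP peak.

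The genes most like each bound gene were sought among 698 other protein-coding genes with a promoter peak of both kinds, by distance in the plane of the log2 fold enrichments. Nearest to Aspm were Cul3, a ubiquitin ligase scaffold (NF-Y-ChIP 8.43, H3K4me3-ChIP 64.1), Zfp39 (8.24 and 66.2) and Anp32a (8.99 and 68.6). Nearest to Wdr62 were Thap8, through the same peaks, Kmt5c (6.70 and 24.5), a histone H4 lysine methyltransferase, and Mroh8 (6.33 and 25.2). Nearest to Cit were Kpnb1 (16.4 and 47.5), which encodes importin β, the calmodulin gene Calm3 (17.6 and 50.2) and Camta1 (16.8 and 52.4). None of them is a member or in either context list.

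The tissue label was checked against marker genes. H3K4me3-ChIP promoter peaks were listed for 10 of 10 genes of cortical progenitors and neurons (fold enrichment 8.79 to 60.7) and for 3 of 12 genes of other tissues or brain regions, namely Dlx2 (47.0), Nkx2-1 (6.64) and Lhx5 (5.67). By the target rule used for the members, the counts were 10 of 10 and 5 of 12, beside 65.4% of all protein-coding genes, and 13767 of 21938 had a promoter peak. Dlx2, a gene of ventral forebrain interneuron progenitors, lay above the median of the cortical genes (34.2). Neither marker list had an NF-Y-ChIP peak. Cortex holds progenitors and neurons together, so a peak of the whole tissue does not say in which of these cells a promoter was bound.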

How the data were processed

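ChIP-seq with antibodies to NF-YC and H3K4me3 and an input, 1 library each, was made from E13.5 mouse cortex. The authors used FastQC, Trimmomatic, Bowtie 2 (version 2.2.8 per the submitters' notes), Samtools and MACS2 (2.1.2) on mm10 (GRCm38), with cut-offs of p of 0.001 for NF-Y-ChIP and q of 0.05 for H3K4me3-ChIP. The study describes the input as its negative control, and whether MACS2 was run against it is not given in the sources used here. The deposited peak lists give for each peak a fold enrichment (a ratio to the local background), −log10 p-value, −log10 q-value, a score and the summit. The 2 lists carry no antibody name and were matched by the statistic behind the deposited score. The H3K4me3-ChIP list holds 18816 peaks, numbered without gaps, which is fewer than the regions the study counts; the reason is not known here, and every H3K4me3 share rests on the list as deposited. No list of the input was analysed, and neither reads nor coverage were used, so the depth is unknown and a difference in fold enrichment between the lists cannot be read as more binding.

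Peaks were joined to GENCODE M21, and motifs were counted on GRCm38, in Python 3.11.15 with pandas 2.3.3, NumPy 2.4.6, SciPy 1.17.1 and pysam 0.24.0; matplotlib 3.10.9 drew the plots. TSSs are the 5′ ends of annotated transcripts, and positions count from the 5′ end of the gene. Shares have exact (Clopper-Pearson) 95% binomial intervals. Overlap, motif and distance steps were tested on simulated data and gave the right answer in 1000 of 1000 cases each. The motif sequences held only A and G apart from an inserted box, so boxes arising by chance were not tested. The genes named are the 10 members, genes sharing their promoters, the context genes with an NF-Y-ChIP peak and the 3 genes most like each bound member; others, such as Plk4, Sass6, the marker genes and the genes at the nearest peaks, are named for their place in a list or on the chromosome. Members and lists were chosen with earlier results of these data known.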

Additional observations from a re-analysis of the deposited data

How the results depend on the processing

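No value of the 32 alternatives reversed. The rank of the Wdr62 peak was 259 by −log10 p and 392 by fold enrichment, that of Aspm 155 and 183, and the Cit summit lay at −76 bp from the nearest protein-coding TSS and −74 bp from any. Stricter p or q limits and wider or narrower assignment left the same 3 bound genes. Restricting to the stronger NF-Y-ChIP peaks left 2, Aspm and Cit, and to the stronger H3K4me3-ChIP peaks left 9 marked genes, in both cases without Wdr62. Members with a CCAAT box numbered 7, and from 6 (longer motif) to 9 (any annotated TSS) otherwise. Among marked promoters 38.1% had a box and 22.0% a box of the longer motif. The count of 9 searched a window at every TSS of a gene, and no share over all genes was computed for it. No paired analysis was possible because each antibody has 1 library.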

Other observations

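A distance between boxes that occurs at both Wdr62 and Cit, noticed after the positions were seen, is given as a value only. Neighbouring CCAAT boxes start 32 and 27 bp apart at Wdr62, 53, 32 and 93 bp at Cit, 25 and 76 bp at Aspm, 84 bp at Stil and 17 and 158 bp at Cep152, so that 32 bp is 2 of these 10 distances. Among marked promoters with at least 2 boxes, a pair 31 to 33 bp apart was present in 76 of 390 with an NF-Y-ChIP peak (19.5%, exact 95% interval 15.7 to 23.8%) and in 142 of 1504 without (9.44%, 8.01 to 11.0%). Promoters with a peak also hold more boxes, and the part of box number in this difference was not tested.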
